A study of Mus musculus with 7 samples.

Results

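Genomic imprinting is the inherited marking of certain genes in the egg or sperm, by DNA methylation at CpG-rich control regions, so that only the copy from the mother or only the copy from the father is transcribed. Many imprinted genes act on fetal growth, are abundant in embryonic muscle and mesenchyme, and fall to low levels after birth. A group of them, linked in mice to the transcription factor Plagl1, is often described as a network. The 9 genes followed here are Plagl1, Peg3, Mest, Dlk1, Cdkn1c, Grb10, Ndn, Meg3 and H19. They were chosen by gene symbol, and each gene was read from every probe set (a group of short probes on the array for one transcript) that the platform annotation assigns to that symbol alone. Of the 9 genes, 8 had at least 1 such probe set, among 18193 genes measured in all. The only probe set annotated with H19, a maternally expressed long non-coding RNA, also carries the symbol Mir675, so H19 has no value here.

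RNA of the plantaris, a hindlimb muscle, was measured on 7 Affymetrix mouse expression arrays. All mice carried Pax7-CreER and Rosa26-DTA and were 4 months old, controls included. Pax7 is the transcription factor of satellite cells, the stem cells of muscle, and tamoxifen activates Cre where it is expressed, which switches on diphtheria toxin there. The groups were tamoxifen with 1 week of overload (n = 3, replicates 1 and 2 male and replicate 3 female), vehicle with 1 week of overload (n = 2, replicate 1 female and replicate 2 male), tamoxifen with sham surgery (n = 1, male) and vehicle with sham surgery (n = 1, male). Overload was produced by synergist ablation, the removal of the muscles that work alongside it. Whether an array holds 1 mouse, as its title reads, or a pool drawn from 11 animals, as the design text has it, is uncertain. The p-values therefore measure the spread between these arrays, which may be partly technical. No group received tamoxifen without the transgenes.

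The deposited values are linear signals, scaled by the authors so that each array has the same trimmed mean of 500. The median signal of an array was 88.2 to 127.7, and 66.6% to 72.6% of genes lay above a background of 54.2, the level below which most olfactory, vomeronasal and taste receptor genes lay. The sham arrays had the lowest medians, 88.2 with vehicle and 99.4 with tamoxifen. Pax7 had signals of 57.9, 9.97 and 120 on the tamoxifen overload arrays, against 274 and 349 on the vehicle overload arrays, and 41.2 on the tamoxifen sham array, against 92.8 on the vehicle sham array. Markers of mature muscle fibres such as Acta1 and Ckm were above background on all 7 arrays (10 of 10 listed).

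The start regions of the genes are shown to describe their CpG sites. They were chosen by transcript start, not as imprinting control regions, and a link to the rise in overload was not tested. RefSeq windows (GRCm38.p6) from 250 bases before to 50 bases after a transcript start were found for 7 of the 9 genes (not Cdkn1c and H19), in 11 windows. The 4 genes with the largest rises in overload are printed, with each CpG in capitals, 5′ to 3′ on the gene's own strand. The windows lie at chr6:30737800-30738099 (plus strand) for Mest, chr10:13090582-13090881 (plus strand) for Plagl1, chr12:109540746-109541045 (plus strand) for Meg3 and chr7:6730370-6730669 (minus strand) for Peg3.
Mest: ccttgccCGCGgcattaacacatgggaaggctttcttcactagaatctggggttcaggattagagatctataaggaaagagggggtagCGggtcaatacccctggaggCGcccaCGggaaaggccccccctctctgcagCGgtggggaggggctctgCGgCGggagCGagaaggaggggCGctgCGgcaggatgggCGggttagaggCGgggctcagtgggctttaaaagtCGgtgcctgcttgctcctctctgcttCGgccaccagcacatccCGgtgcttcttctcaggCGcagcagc
Plagl1: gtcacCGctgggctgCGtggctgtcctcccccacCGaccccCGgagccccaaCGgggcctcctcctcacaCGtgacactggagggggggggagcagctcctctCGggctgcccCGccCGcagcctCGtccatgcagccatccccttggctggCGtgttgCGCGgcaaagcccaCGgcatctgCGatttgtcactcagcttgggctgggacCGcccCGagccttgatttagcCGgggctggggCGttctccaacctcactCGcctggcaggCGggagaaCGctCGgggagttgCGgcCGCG
Meg3: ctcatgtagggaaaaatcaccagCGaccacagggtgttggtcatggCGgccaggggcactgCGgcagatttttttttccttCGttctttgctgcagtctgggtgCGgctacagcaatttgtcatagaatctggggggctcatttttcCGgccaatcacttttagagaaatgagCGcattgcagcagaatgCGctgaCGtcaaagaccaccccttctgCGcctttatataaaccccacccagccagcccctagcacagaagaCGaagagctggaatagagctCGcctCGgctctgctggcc
Peg3: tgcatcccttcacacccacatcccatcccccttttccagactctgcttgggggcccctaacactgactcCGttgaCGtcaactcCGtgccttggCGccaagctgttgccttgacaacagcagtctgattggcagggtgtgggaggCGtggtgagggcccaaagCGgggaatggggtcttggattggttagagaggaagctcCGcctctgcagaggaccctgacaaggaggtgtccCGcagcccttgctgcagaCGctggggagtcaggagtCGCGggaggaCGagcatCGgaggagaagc
The Mest window printed holds 17 CpG sites, that of Plagl1 26, and those of Meg3 and Peg3 13 each, against a median of 7 over 32851 RefSeq windows of this length. Of the 11 windows of these genes 10 lay above that median, the exception being a second Meg3 window with 1 CpG site. Most of the 11 lay below the upper quartile of all windows, which was 20 CpG sites. The other 2 Mest windows hold 8 and 17, and an upstream Grb10 window reached 45 CpG sites, more than 98.1% of all windows. The second Mest window with 17 sites, chr6:30737803-30738102, overlaps nearly all of the printed one. The counts over 11 windows therefore hold that start region more than once. Peg3 alone held GGGGCCCC, a palindrome that the zinc fingers of Plagl1 are known to bind and that 1.08% of all windows hold. The core CCATNTT of the factor YY1, searched on both strands, was found in 1 of the 11 windows (Grb10) and in 16.1% of all windows. E-boxes (CANNTG), the sites of myogenic factors, were found in 6 of the 11 windows and in 72.3% of all windows. These are matches of letters, not measured binding.

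The first comparison set the 5 overload arrays against the 2 sham arrays, as the mean of the tamoxifen and the vehicle difference. All 8 measured genes rose, by 2.29-fold for Ndn to 31.0-fold for Mest. A linear model fitted across all genes (limma, adjusted p under 0.05) called all 8 higher, where it called 14.7% of all genes higher and 8.16% lower. These shares depend on scaling. Of 18193 genes it called 1740 higher and 2710 lower with arrays centred on their medians, and 2034 and 1306 after quantile normalization. All 8 passed under both. The median log2 difference of the 8 was 2.36, while that of all genes was 0.07. Every one of the 8 had all 5 overload arrays above both sham arrays, as did 23.1% of all genes. The genes were proposed with earlier results of these arrays known, so their joint rise is a description and not independent support. In bulk muscle, more cells of a type and more RNA per cell cannot be told apart.

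**Figure D1:**
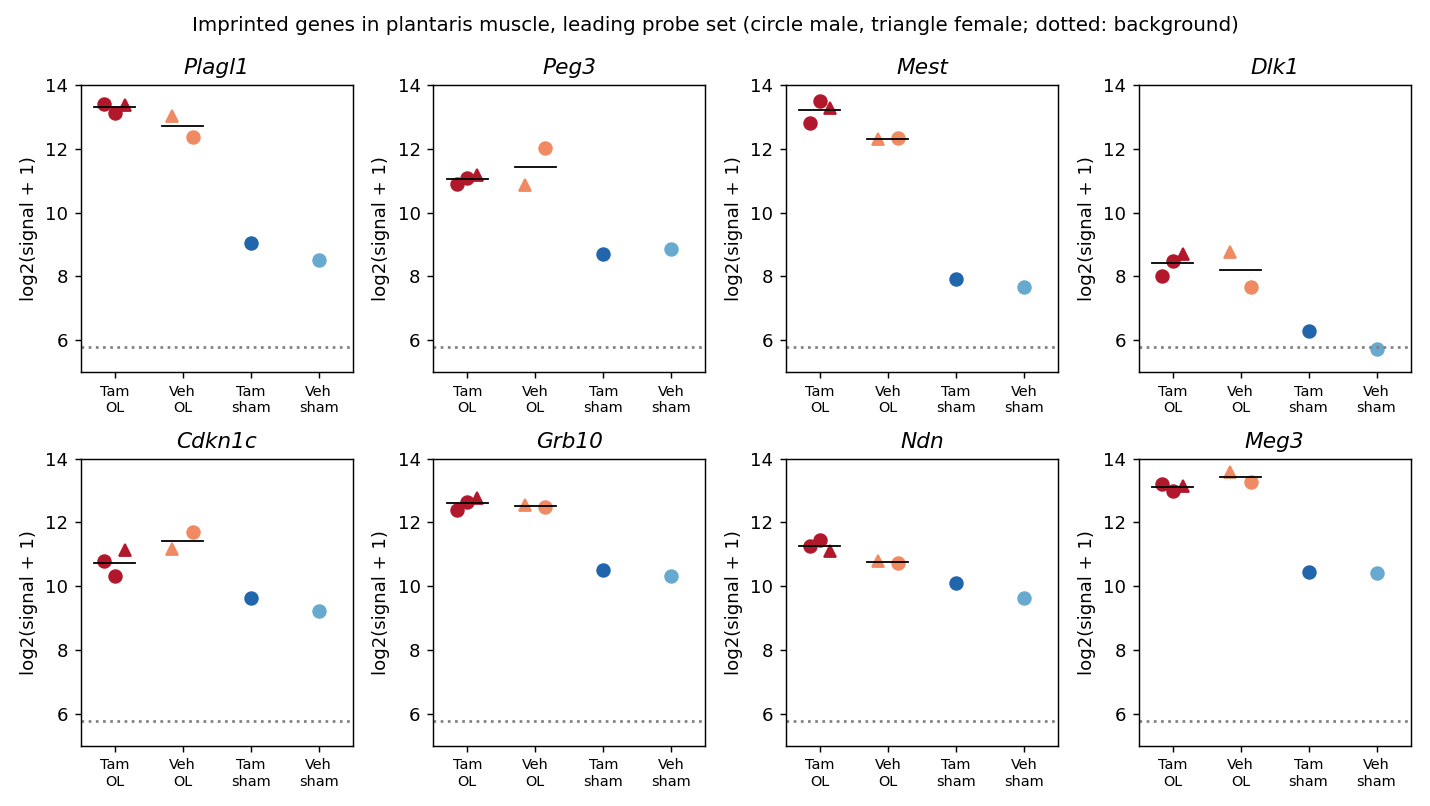
Log2(signal + 1) of the leading probe set of each gene on each array, by group (Tam, tamoxifen; Veh, vehicle; OL, overload); circles are male and triangles female arrays, the bar is the group mean where n is 2 or 3, and the dotted line is the background. All 5 overload arrays lie above both sham arrays in each of the 8 panels, and Dlk1 on the vehicle sham array is the one point below background.

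Plagl1 (also called Zac1) encodes a zinc finger transcription factor expressed from the paternal copy. Its signal was 10798, 8951 and 10574 on the tamoxifen overload arrays and 8428 and 5280.2 on the vehicle overload arrays, against 525 on the tamoxifen sham and 368 on the vehicle sham array. The groups lay far apart, since the lowest overload array was 10.0-fold above the highest sham array. The sex-adjusted log2 difference between overload and sham was 4.07 ± 0.17 (SE, limma adjusted p = 1.71e-05), a 16.8-fold rise, and the 50th largest of 18193 genes.

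Peg3, paternally expressed, encodes a large zinc finger protein that in mice marks satellite cells and interstitial progenitors of muscle. It had signals of 1891, 2184 and 2295 on the tamoxifen overload arrays and 1861 and 4154 on the vehicle overload arrays, against 414 on the tamoxifen sham and 461 on the vehicle sham array. The male vehicle overload array stood highest, and the other 4 overload arrays lay close together. The log2 difference was 2.64 ± 0.27 (SE, limma adjusted p = 0.000667). With the mean of all 5 Peg3 probe sets, 2 of them below background on every array, it came to 1.63. The probe sets 1417355_at and 1417356_at rose by 3.04 and 4.09 (log2), the latter being below background on the vehicle sham array.

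Mest, also known as Peg1, is paternally expressed, and its protein has the fold of a hydrolase. It showed the largest rise of the 8. Signals were 7223, 11641 and 9892 on the tamoxifen overload arrays and 5010.3 and 5209.5 on the vehicle overload arrays, against 239 on the tamoxifen sham and 203 on the vehicle sham array. The lowest overload array stood 20.9-fold above the highest sham array. The log2 difference was 4.95 ± 0.21 (SE, limma adjusted p = 1.62e-05), the 17th largest of 18193 genes.

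Dlk1, a paternally expressed membrane protein with EGF-like repeats related to the Notch ligands, was dim in sham muscle. Signals were 258, 359 and 418 on the tamoxifen overload arrays and 433 and 201 on the vehicle overload arrays, against 76.6 on the tamoxifen sham and 51.65 on the vehicle sham array, the last below background. The 2 female arrays had the highest values within their groups. The log2 difference was 2.00 ± 0.28 (SE, limma adjusted p = 0.00233), with a female minus male difference of 0.73 ± 0.28 (adjusted p = 0.978) that did not pass.

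Cdkn1c and Grb10 are growth inhibitors expressed from the maternal copy in most tissues. Cdkn1c encodes p57, an inhibitor of cyclin-dependent kinases. Its signal was 1773, 1266 and 2229 on the tamoxifen overload arrays and 2297 and 3335 on the vehicle overload arrays, against 797 on the tamoxifen sham and 600.3 on the vehicle sham array. It had a log2 difference of 1.61 ± 0.26 (SE, limma adjusted p = 0.00405), with tamoxifen overload replicate 2 nearest to sham. Grb10 encodes an adaptor that binds the insulin and IGF1 receptors and dampens their signal. It had signals of 5357, 6426 and 7003 on the tamoxifen overload arrays and 5959 and 5785 on the vehicle overload arrays, against 1446 on the tamoxifen sham and 1284 on the vehicle sham array. Overload arrays were close together, and the log2 difference was 2.08 ± 0.15 (SE, limma adjusted p = 0.000145).

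Ndn encodes necdin, a paternally expressed protein of the MAGE family that restrains proliferation and, in mouse myoblasts, favours differentiation. Its signal was 2479.6, 2772 and 2202 on the tamoxifen overload arrays and 1788 and 1707 on the vehicle overload arrays, against 1105 on the tamoxifen sham and 797 on the vehicle sham array. This was the smallest rise of the 8, at 1.19 ± 0.15 (log2, SE, limma adjusted p = 0.00124). It lost its call, with 0.70 (adjusted p = 0.123), when all 8 Ndn probe sets were averaged, of which 2 lay below background on every array and 1 lay above it on a single array.

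Meg3 is a long non-coding RNA transcribed from the maternal copy of the domain on chromosome 12 that also holds Dlk1. Signals were 9476, 8055 and 9138 on the tamoxifen overload arrays and 12196 and 9769 on the vehicle overload arrays, against 1403 on the tamoxifen sham and 1356 on the vehicle sham array. The sham arrays were nearly equal, and the log2 difference was 2.76 ± 0.15 (SE, limma adjusted p = 5.36e-05).

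With 2 residual degrees of freedom the calls lean on variances borrowed across genes, and sham arrays were assumed to vary like overload arrays. When limma was run with no trend in the variances, and when each gene was fitted alone by an ordinary model, 0 of the 8 and 0 of all genes passed, with 5234 and 4142 genes at an unadjusted p under 0.05. Leaving out any 1 array kept all 8 calls.

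The genes are represented by 34 probe sets, which give a second look at each transcript. Of these, 25 were called higher in overload, where 12.6% of 34945 probe sets were. Of the other 9 probe sets, 5 were below background on every array, 3 were above it on some arrays, and 1, a Meg3 probe set (1436057_at), was above it on all 7. Meg3 had 11 probe sets, 9 of which rose by 1.35 to 3.66 (log2). A Meg3 value within that range is a bound, since 1428765_at lay below background on both sham arrays (at least 3.52-fold). All 3 Grb10 probe sets rose, by 2.08, 2.24 and 0.73. The 0.73 came from 1430164_a_at, with signals of 385, 520.3 and 512 on the tamoxifen overload arrays and 439.9 and 326 on the vehicle overload arrays, against 256 on the tamoxifen sham and 211 on the vehicle sham array. A second Plagl1 probe set (1450533_a_at), below background on both sham arrays, rose at least 3.95-fold, and 5 of 8 Ndn probe sets rose by 1.07 to 1.29. Mest and Cdkn1c have 1 probe set each. Probe sets of a gene read the same RNA, so they are not replicates.

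**Figure D2:**
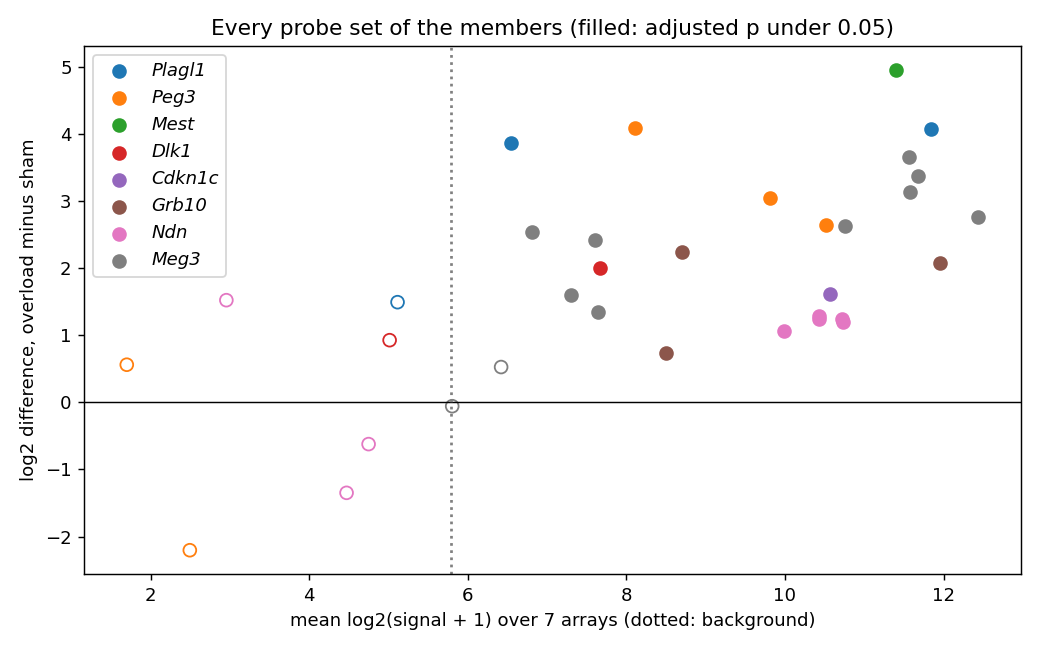
Log2 difference of overload minus sham against the mean log2(signal + 1) over 7 arrays for each of the 34 probe sets; filled points passed at an adjusted p under 0.05 over all 34945 probe sets, and the dotted line is the background. The 25 filled points all lie above 0 and right of the background line, and 7 of the 9 open points lie left of it.

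The rise was next read within each treatment, which asks whether it was present in muscle meant to lack satellite cells. Limma called 7 of the 8 genes higher with tamoxifen, where it called 9.98% of all genes, and 8 of 8 with vehicle, where it called 6.35%. Mest had a log2 difference of 5.28 ± 0.27 with tamoxifen and 4.63 ± 0.29 with vehicle (SE), Plagl1 of 4.14 ± 0.22 and 4.00 ± 0.24, Meg3 of 2.60 ± 0.19 and 2.92 ± 0.21, and Peg3 of 2.48 ± 0.35 and 2.79 ± 0.38. Grb10 stood at 2.05 ± 0.19 with tamoxifen and 2.11 ± 0.21 with vehicle, and Ndn at 1.20 ± 0.19 and 1.19 ± 0.21. The interaction, tamoxifen minus vehicle, was 0.65 for Mest (95% interval -0.22 to 1.51, limma adjusted p = 0.959), 0.14 for Plagl1 (-0.59 to 0.87), -0.32 for Meg3 (-0.94 to 0.30) and -0.30 for Peg3 (-1.45 to 0.85). When its 3 probe sets were averaged Plagl1 stood at 4.18 with tamoxifen and 2.11 with vehicle, an interaction of 2.07 (adjusted p = 0.660). That average takes in sham signals under background. On the tamoxifen and vehicle sham arrays 1438588_at read 3.94 and 52.4, and 1450533_a_at read 6.62 and 15.9. Dlk1 rose 3.69-fold with tamoxifen and at least 4.16-fold with vehicle, a bound because the vehicle sham array lay below background. When the probe sets of each gene were averaged, Peg3, Dlk1 and Ndn came to 1.06, 0.96 and 0.50 (log2) with tamoxifen and did not pass. With vehicle they came to 2.20, 1.97 and 0.90, of which Dlk1 alone passed. These averages take in probe sets below background on every array.

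Cdkn1c was the gene that differed in call. It had a log2 difference of 1.07 ± 0.34 with tamoxifen (SE, adjusted p = 0.0703), against 2.15 ± 0.37 with vehicle (adjusted p = 0.0126). The test of that difference itself, the interaction, gave -1.09 ± 0.47 (unadjusted p = 0.0516, adjusted p = 0.893), so a smaller rise with tamoxifen was not established. With tamoxifen the value passed without tamoxifen overload replicate 1, 2 or 3 (1.01, 1.37 and 0.91), and with vehicle it did not pass without vehicle overload replicate 2 (1.36, adjusted p = 0.134). Leaving out vehicle overload replicate 2 also ended the vehicle calls of Dlk1 (adjusted p = 0.0625) and Ndn (adjusted p = 0.0772), so that 5 of 8 passed. In that fit 315 of 18193 genes were called higher, against 1155 with all 7 arrays. For the interaction limma called 0 of the 8 and 0% of all genes, with 0 of the 8 and 5.61% of all genes at an unadjusted p under 0.05.

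**Figure D3:**
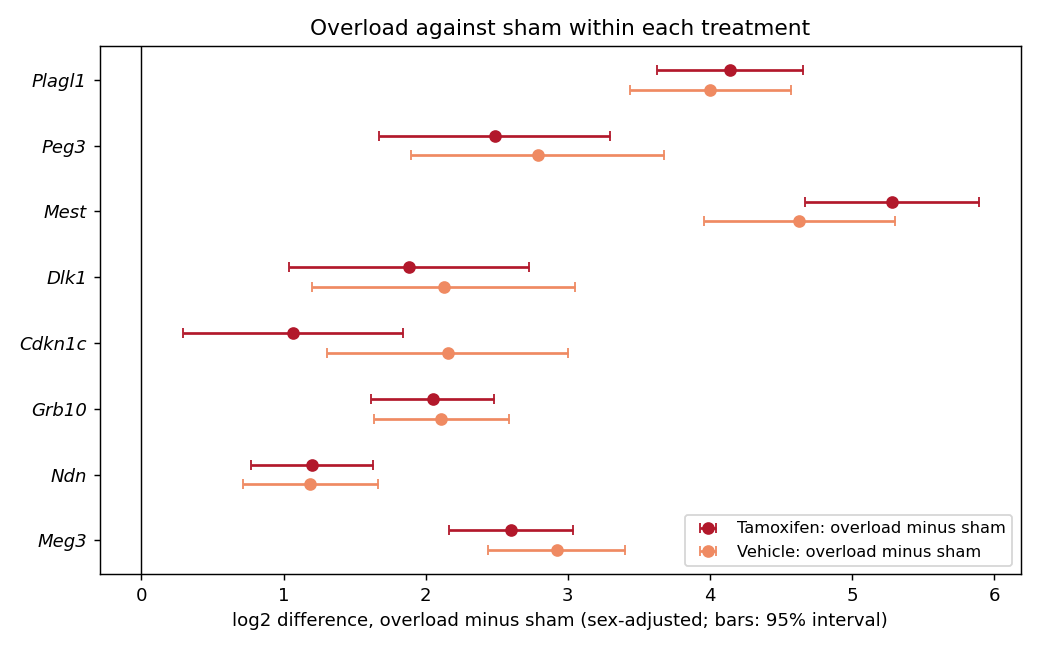
Sex-adjusted log2 difference of overload minus sham for each gene with tamoxifen and with vehicle; points are limma estimates, bars their unadjusted 95% intervals, and each sham side is 1 array. No interval reaches 0, and the 2 treatments lie farthest apart for Cdkn1c, at 1.07 with tamoxifen and 2.15 with vehicle.

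Tamoxifen was then set against vehicle in overloaded muscle (3 against 2 arrays). None of the 8 genes passed, and limma called 0% of all genes, with 4 of the 8 genes and 10.6% of all genes at an unadjusted p under 0.05. Those 4 were Mest at 0.89 ± 0.21 (log2, SE, 95% interval 0.41 to 1.36, adjusted p = 0.378), Plagl1 at 0.65 ± 0.17 (0.25 to 1.05, adjusted p = 0.384), Ndn at 0.48 ± 0.15 (0.15 to 0.82, adjusted p = 0.397) and Cdkn1c at -0.68 ± 0.26 (-1.28 to -0.08, adjusted p = 0.441). The Cdkn1c value moved to -0.044 without vehicle overload replicate 2, and to -1.15 with male arrays alone. Mest, Plagl1 and Ndn had all 3 tamoxifen arrays above both vehicle arrays, which 16.9% of all genes did. Cdkn1c and Meg3 had all 3 tamoxifen arrays below both vehicle arrays, which 12.6% of all genes did.

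Mest was called (1.07, adjusted p = 0.00776) when tamoxifen overload replicate 1, the lowest of its 3 arrays, was left out, a fit in which 184 genes were called higher and 43 lower. Peg3 stood at -0.46 ± 0.27, a value set by the bright male vehicle array: without it the difference was 0.30. Meg3 stood at -0.27 ± 0.15, but its probe sets differed in sign, with 4 positive and 7 negative and none past the test. Among the brighter ones, 1436713_s_at and 1452905_at gave 0.26 and 0.23, while 1452183_a_at and 1426758_s_at gave -0.37 and -0.47. Dlk1 at 0.32 ± 0.28 and Grb10 at 0.11 ± 0.15 had intervals of -0.34 to 0.97 and -0.22 to 0.45.

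**Figure D4:**
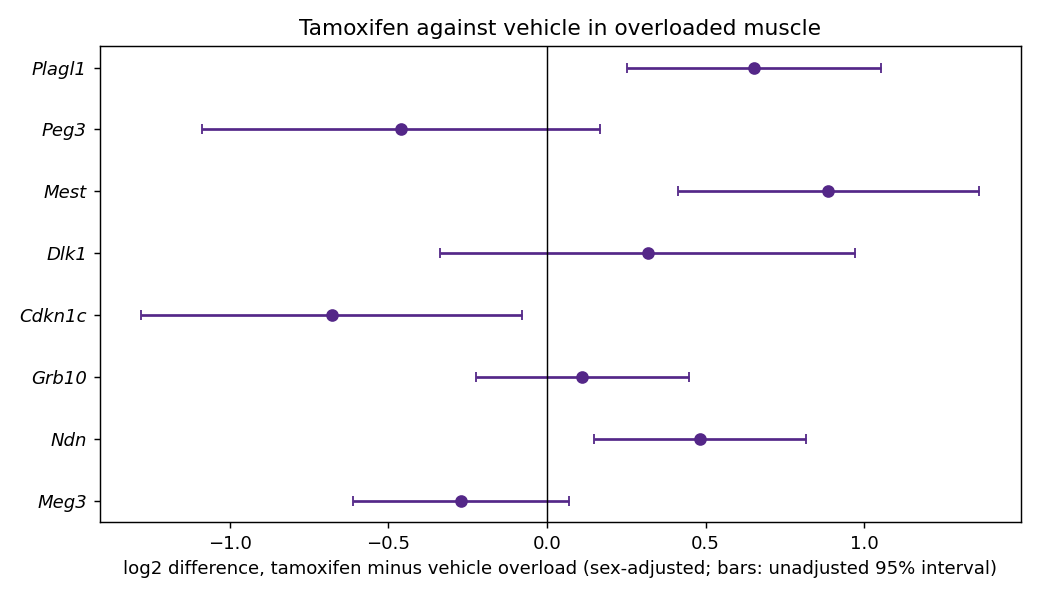
Sex-adjusted log2 difference of tamoxifen minus vehicle overload arrays for each gene, with its unadjusted 95% interval (limma, 3 against 2 arrays). The intervals of Mest, Plagl1 and Ndn lie above 0 and that of Cdkn1c below it, and none of the 8 passed after adjustment over 18193 genes.

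In sham muscle each treatment has 1 array, so a test must borrow its spread from the overload arrays. Taken from the same limma fit after the data were seen, that contrast called 0 of the 8 genes and 0.0055% of all genes, with 0 of the 8 and 7.11% of all genes at an unadjusted p under 0.05. On the tamoxifen sham array 7 of the 8 genes were higher than on the vehicle sham array, as were 52.9% of all genes. The ratio of signals was 1.43 for Plagl1, 1.39 for Ndn and 1.33 for Cdkn1c, and it was 0.90 for Peg3. For Dlk1 it was at least 1.41, a bound because the vehicle sham array lay below background. The count and the ratios are of leading probe sets, and those of Peg3 differ in direction. On the tamoxifen and vehicle sham arrays 1417355_at read 328 and 140. There 1417356_at read 84.8 and 16.7, the last below background.

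Markers of several cell types moved with these genes. Of 9 measured fibroblast and fibro-adipogenic progenitor markers 7 rose in overload, of 10 macrophage markers 10, of 10 markers of differentiating myoblasts 9, of 10 satellite cell markers 5 and of 7 markers of dividing cells 6. For these and the marker counts below, the shares over all genes were 14.7% called higher and 8.16% lower. The summed signal of the fibroblast list was 82076 to 93442 on the tamoxifen overload and 68492 to 88659 on the vehicle overload arrays, against 35702 on the tamoxifen sham and 30332 on the vehicle sham array. That of the myoblast list was 28210 to 44548 on the tamoxifen overload and 42322 to 63390 on the vehicle overload arrays, against 4449 on the tamoxifen sham and 3682 on the vehicle sham array. The satellite cell list summed to 5497 to 6163 on the tamoxifen overload and 7232 to 8202 on the vehicle overload arrays, against 3845 on the tamoxifen sham and 3523 on the vehicle sham array. Of that list Itga7, Vcam1, Megf10, Chodl and Fgfr4 rose, while Pax7 (0.40, adjusted p = 0.781), Calcr, Myf5, Cdh15 and Sdc4 did not pass. On tamoxifen overload replicate 2 Itga7, Sdc4 and Vcam1 had signals of 1303, 1328 and 1435, against a background of 54.2 that Pax7 and Calcr did not reach there. For macrophages the sums were 25759 to 35175 and 21744 to 22183 on the tamoxifen and vehicle overload arrays, against 9164 and 5131 on the tamoxifen and vehicle sham arrays. No marker of these lists was at 0. Mymk, Mymx, Chrng, Calcr and Trem2 were below background on both sham arrays, as were Cdk1, Birc5 and Bub1 of the dividing cell list. The part of any cell type in the rise of the imprinted genes, and in the treatment differences, was not tested. Of 10 mature fibre markers 0 passed, while 1 endothelial marker was higher and 1 lower of 8. Of 8 smooth muscle and pericyte markers 2 rose, of 6 tendon markers 3 rose, of 6 adipocyte markers 4 fell and of 4 Schwann cell markers 1 fell. Some marker calls depend on scaling. With arrays centred on their medians Cd34, Chodl, Vwf, Acta2 and Thbs4 no longer passed as higher, while Cidec and Myh11 passed as lower. After quantile normalization Mbp no longer passed as lower, while Cidec did. Genes are named here for these changes.

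Other imprinted genes were described from a list of 24, of which 22 were measured and 17 lay above background on at least 1 array. Of the 22, 6 rose and 2 fell in overload, with a median of 0.26, where 14.7% of all genes were called higher and 8.16% lower. Rian, a non-coding RNA of the same chromosome 12 domain as Dlk1 and Meg3, rose by 4.03 ± 0.16 (log2, SE, adjusted p = 1.62e-05), with signals of 2046, 1743 and 2184 on the tamoxifen overload arrays and 3129 and 2134 on the vehicle overload arrays, against 116 on the tamoxifen sham and 133 on the vehicle sham array. Mirg, a microRNA host transcript of that domain, rose by 1.67. Igf2, the paternally expressed fetal growth factor, rose by 3.45 ± 0.19. Its level was 4624 to 6992 on the tamoxifen overload arrays and 9994 to 12085 on the vehicle overload arrays, against 667 on the tamoxifen sham and 687 on the vehicle sham array. In overload its tamoxifen minus vehicle difference of -0.96 ± 0.19 (log2, SE, limma adjusted p = 0.378) did not pass. All tamoxifen overload arrays lay below both vehicle overload arrays for Igf2, as they did for 12.6% of all genes. Nnat, which encodes neuronatin, fell by 1.66 on the log2 scale. Asb4, named after its value was seen, also fell, by 1.41 on the log2 scale. Gatm, Sgce and Igf2r, named likewise, rose by 1.40, 0.65 and 0.58. With arrays centred on their medians Sgce and Igf2r no longer passed (0.36 and 0.29), since that scaling moved the median of all genes by -0.29.

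**Figure D5:**
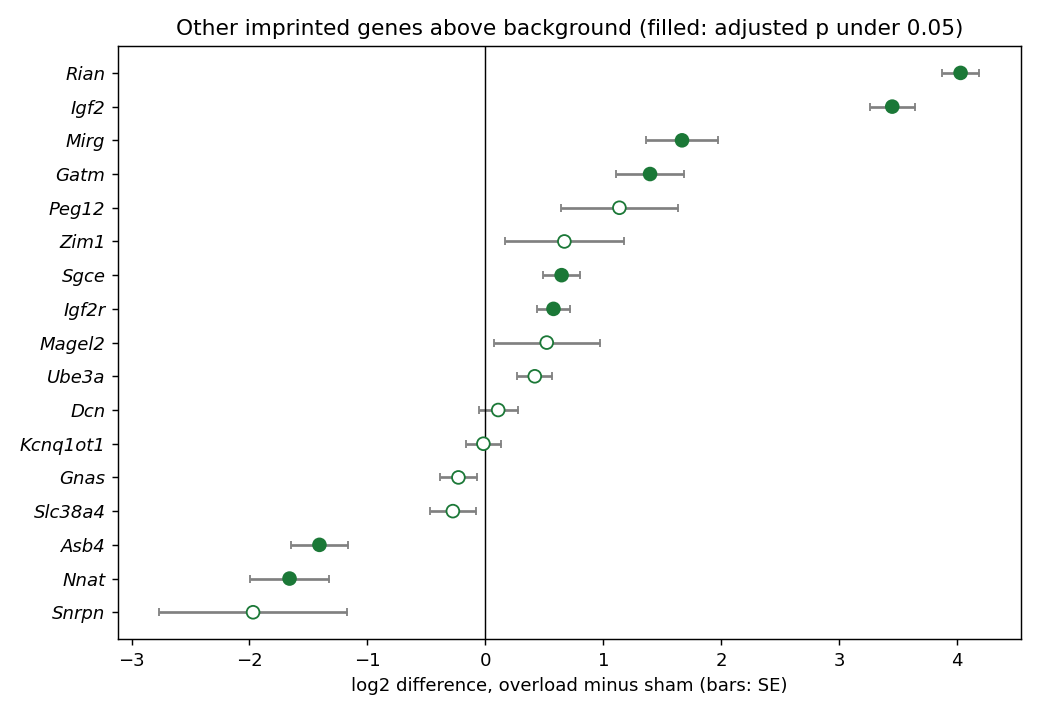
Log2 difference of overload minus sham, with its SE, for the 17 other imprinted genes above background on at least 1 array; filled points passed at an adjusted p under 0.05. Rian and Igf2 lie farthest above 0, at 4.03 and 3.45, and Nnat and Asb4 are the filled points below 0.

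Relatives of the genes by protein family did not all move as they did. Of 9 listed relatives 3 rose and 1 fell, with a median of -0.05, where 14.7% of all genes were called higher and 8.16% lower. Maged2 and Maged1, of the MAGE family like necdin, rose by 3.09 and 2.04. Cdkn1a, which encodes the kinase inhibitor p21, rose by 2.14, while Cdkn1b, which encodes p27, stood at 0.18 (adjusted p = 0.502). Grb14, an adaptor of the Grb10 family, fell by 0.48 on the log2 scale (adjusted p = 0.0389), a call lost after quantile normalization (adjusted p = 0.0701). Dlk2 and Plagl2 stood at -0.21 and -0.05 (adjusted p = 0.756 and 0.944), and these 2, Cdkn1b and Igf1r were named after their values were seen. In a list of 10 insulin and IGF signalling genes 4 rose and 2 fell, against the same shares over all genes. With arrays centred on their medians Akt1 and Igf2r no longer passed as higher, while Irs2 passed as lower. After quantile normalization Akt1 no longer passed as higher, nor Akt2 as lower. Igf1 rose by 2.31 and Insr, the insulin receptor gene to whose product Grb10 binds, fell by 0.62 on the log2 scale, while the IGF1 receptor gene Igf1r stood at 0.10 (adjusted p = 0.738).

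Genes that lie next to the 8 on the chromosome were read as well, as the 2 nearest on each side in RefSeq (GRCm38.p6) that were above background. Outside the lists of imprinted genes used here these were 21 genes, of which 5 rose and 1 fell, with a median of 0.35. Over all genes 14.7% were called higher and 8.16% lower. Absence from these lists does not mean that a gene is not imprinted. The 5 lay beside Mest and Grb10. Copg2 next to Mest rose by 1.76 and LOC102631979 next to Grb10 by 1.26 (log2). Ddc and Fignl1, next to Grb10, lay below background on both sham arrays and rose at least 4.30-fold and 2.48-fold. Tsga13, next to Mest, also lay below it there and gets no fold, since its mean in overload did not exceed background. Snhg14, beside Ndn, fell by 1.06 on the log2 scale. No neighbour of Peg3, Plagl1 or Cdkn1c passed, and at the Dlk1 and Meg3 domain the neighbours that rose were Rian and Mirg. These neighbours were chosen by position and named after their values were seen.

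Patterns over the 7 arrays were compared by the root mean square difference of log2 values, each gene centred on its own mean. Of 14421 genes above background on at least 1 array, the 2 nearest to each gene were Gm12446 (0.17) and Hsf2bp (0.21) for Peg3, Ccl17 (0.13) and Zfp185 (0.19) for Dlk1, Tceal7 (0.17) and Ankrd1 (0.19) for Meg3, and Slc15a3 (0.28) and Adam12 (0.29) for Mest. They were the probe set annotated Mir133b (0.14) and Zdbf2 (0.20) for Cdkn1c, AW551984 (0.25) and Igsf6 (0.29) for Plagl1, Gem (0.09) and Nectin3 (0.12) for Grb10, and Tmc4 (0.08) and Dlg5 (0.09) for Ndn. Among the 8 themselves Dlk1 and Grb10 were the nearest pair (0.33), and Mest and Ndn the farthest (1.76). All arrays are shared, and the distance is dominated by the step between overload and sham.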

How the data were processed

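The authors deposited linear intensities, scaled to one trimmed mean per array (2% of probe sets left out at each end), as the values show. Partek is named per the submitters' processing notes, with a method of probe summary not given in the sources used here. No scan dates came with the values, so array batches were not examined. Values were taken as log2(value + 1). Of 45101 probe sets, 64 are controls, 932 have several symbols and 9160 none; 34945 with 1 symbol (34741 matched to RefSeq by Entrez identifier) gave 18193 genes, and the brightest probe set on average stands for a gene. The background of log2 5.79 is the 95th percentile of the mean levels of 76 receptor genes.

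The model, fitted in limma (version 3.58.1; R version 4.3.3; the data.table package, version 1.17.8), has a mean for each of 4 groups and a sex term, with moderated variances along an intensity trend (2 residual and 5.95 prior degrees of freedom). Calls are two-sided, at p under 0.05 after Benjamini-Hochberg adjustment over all genes. Fold changes are on the log2(value + 1) scale. Named were all 8 measured genes, up to 4 called genes with the largest differences from each further list, and the 2 genes nearest in pattern. The genes and lists were chosen with earlier results of these data known. The fit was tested on simulated data. Alternatives concerned the sex term, male arrays, scaling, pseudocount, a filter on dim genes, probe sets, variances and each array left out; a fit with neither sex term nor trend, and the contrast between the sham arrays, were added after seeing the data. Figures used Python 3.11.15 and matplotlib 3.10.9.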

Additional observations from a re-analysis of the deposited data

How the results depend on the processing

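Numbers of the 8 genes called are given first. For overload against sham, 0 passed with no variance trend and 0 with an ordinary linear model. This held averaged over treatments and within each, against 8 (average), 8 (vehicle) and 7 (tamoxifen) in the main fit. Both settings change the variances and leave the differences as they were, so the direction could not change. With neither sex term nor trend 4 passed for vehicle and 4 for tamoxifen. The mean of the probe sets of a gene gave 4 for tamoxifen, where Peg3, Dlk1 and Ndn were lost. It gave 6 for vehicle, where Peg3 (adjusted p = 0.0560) and Ndn (0.228) were lost. Male arrays alone gave 7 for vehicle, where Dlk1 (0.0541) was lost. Leaving out each array gave 8 to 8 for the average, 5 to 8 for vehicle, 7 to 8 for tamoxifen, 0 to 1 for tamoxifen against vehicle in overload and 0 to 0 for the interaction. Fits that leave out 1 of the female arrays nearly equal that of male arrays alone. Over the alternatives no gene changed sign for overload against sham. For tamoxifen against vehicle in overload, Grb10 came to -0.033 with median centring, and Peg3 to 0.071 and Ndn to -0.069 with the mean of probe sets; leaving out each array gave -1.03 to 0.30 for Peg3 and -0.051 to 0.59 for Dlk1. For the interaction, Dlk1 came to 0.036 with male arrays alone, Grb10 to 0.016 with quantile normalization and to 0.056 with the mean of probe sets, and Ndn to -0.40 with the mean of probe sets; leaving out each array gave -0.15 to 0.062 for Grb10, -0.17 to 0.15 for Ndn, -0.61 to 0.036 for Dlk1, -0.87 to 0.46 for Peg3 and -0.19 to 0.38 for Plagl1. None of the values that changed sign had passed, and the causes were not tested. The small number of arrays limits every value. No paired analysis was possible because the labels number replicates in the tamoxifen overload group alone. Genes within reach of background, Dlk1 in sham muscle above all, are limited by signal.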
